A study of Mus musculus with 2 samples.

Results

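The globin genes of the alpha and beta loci and 3 erythroid genes were examined in DNase-seq of the embryonic mouse hindbrain, an assay that maps open chromatin by cutting nuclei with DNase I and sequencing the cut ends. The 10 genes were the beta-like globins Hbb-y, Hbb-bh1, Hbb-bs and Hbb-bt, the alpha-like globins Hba-x, Hba-a1 and Hba-a2, and Klf1, Epor and Alas2, out of 21911 protein-coding genes of GENCODE M21. They were chosen by name, with earlier results of these data known. The regions examined were the peaks and hotspots within 1 kb of any annotated start of these genes, and those across both globin loci with 60 kb on each side. Peaks are the narrow intervals of strongest cutting and hotspots the wider intervals of enriched cutting. The loci held 40 sites (alpha) and 4 sites (beta) of 231068 in all, a site being 1 or more overlapping peaks of either library.

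The series holds 1 group, hindbrain tissue of strain B6NCrl embryos at 11.5 days, with male and female embryos pooled, and 2 libraries, biological replicates 1 and 2. There is no control tissue, no purified cell type and no second condition, so every value below is a description without a test. The tissue was not sorted, and from such pooled nuclei fewer cells of a type and a weaker opening in each cell cannot be told apart. The analysed peaks numbered 150176 in replicate 1 and 194873 in replicate 2. The peak height, the authors' signal value, had a median of 36 in replicate 1 and 50 in replicate 2, and 94.6% of the 97657 sites with a peak in both libraries (shared sites) were higher in replicate 2. Heights are therefore given for each library beside their percentile among the peaks of that library, and replicate 1 always comes first.

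Red cells carry oxygen on haemoglobin, made of alpha-like and beta-like globin chains around haem. At midgestation the circulating red cells are mainly nucleated primitive erythroblasts from the yolk sac, which use the embryonic chains of Hba-x (zeta), Hbb-y (epsilon y) and Hbb-bh1 (beta h1) beside the adult alpha chains. The adult beta chains come from Hbb-bs and Hbb-bt. In erythroid cells the beta genes are driven by a locus control region upstream of Hbb-y, whose second hypersensitive site is known for a tandem pair of NF-E2 motifs, and the alpha genes by enhancers in and near the introns of the neighbouring gene Nprl3. The regulators GATA1, TAL1, KLF1 and NF-E2 act at these elements and at the globin promoters, and the protein CTCF binds at the edges of both loci.

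The sequences below carry the motifs that the sites and promoters of these loci hold. The first is the beta locus site 7.9 kb upstream of Hbb-y, shown for 2 adjacent copies of the NF-E2 core, in capitals with the bases of the longer form (TGCTGA, any base, TCA) around them (mm10, chr7:103861006-103861155, + strand).
Beta locus, 7.9 kb upstream of Hbb-y: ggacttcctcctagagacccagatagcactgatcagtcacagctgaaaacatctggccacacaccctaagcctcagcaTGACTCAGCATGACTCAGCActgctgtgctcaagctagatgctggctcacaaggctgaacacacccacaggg
The second is the beta locus site downstream of Hbb-bt, with a GATA match and a CTCF core in capitals (chr7:103806986-103807135, + strand).
Beta locus, downstream of Hbb-bt: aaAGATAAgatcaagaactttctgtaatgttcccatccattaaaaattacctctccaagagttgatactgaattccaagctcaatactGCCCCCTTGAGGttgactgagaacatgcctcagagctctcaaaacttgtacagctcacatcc
The next 2 are intergenic sites between Hbq1a and Sh3pxd2b, shown for their CTCF cores in capitals (chr11:32321276-32321425 and chr11:32341206-32341355, + strand).
Alpha locus, 45.0 kb downstream: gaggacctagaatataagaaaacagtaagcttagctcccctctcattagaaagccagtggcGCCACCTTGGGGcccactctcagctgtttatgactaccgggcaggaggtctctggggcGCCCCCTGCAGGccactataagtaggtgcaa
Alpha locus, 64.9 kb downstream: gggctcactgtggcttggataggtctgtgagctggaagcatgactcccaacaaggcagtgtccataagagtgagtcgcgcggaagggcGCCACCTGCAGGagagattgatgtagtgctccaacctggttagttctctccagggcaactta
The next is the open site just upstream of Epor, with GATA and CACCC matches in capitals (chr9:21963576-21963725, + strand, so that the gene reads from right to left).
Epor, upstream site: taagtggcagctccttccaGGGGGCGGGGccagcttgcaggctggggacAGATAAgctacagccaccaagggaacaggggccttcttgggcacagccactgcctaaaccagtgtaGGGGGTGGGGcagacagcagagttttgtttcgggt
The last 2 are stretches just upstream of the RefSeq starts of an embryonic beta and an adult alpha globin gene, in the direction of the gene, neither of which had a peak, with CCAAT boxes in capitals (chr7:103853208-103853327, − strand, and chr11:32296372-32296491, + strand, RefSeq on GRCm38.p6).
Hbb-y promoter: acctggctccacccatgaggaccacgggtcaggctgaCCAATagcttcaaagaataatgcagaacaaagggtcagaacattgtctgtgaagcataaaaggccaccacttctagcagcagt
Hba-a2 promoter: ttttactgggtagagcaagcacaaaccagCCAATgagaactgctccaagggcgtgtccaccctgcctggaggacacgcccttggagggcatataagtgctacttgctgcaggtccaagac

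None of the 7 globin genes had a peak or a hotspot within 1 kb of a start in either library. Of all protein-coding genes, 68% had a peak there in both libraries, and so did 1 of the 10 genes, Epor. Klf1, the erythroid zinc finger activator of adult beta globin, had start peaks in replicate 1 alone. Alas2, the erythroid form of the first enzyme of haem synthesis, had none. By library, 2 of the 10 had a start peak in replicate 1 against 68.7% of all genes, and 1 of the 10 in replicate 2 against 71%. With hotspots in place of peaks, Klf1 and Epor had one in both libraries, against 68.2% of all genes.

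Of the 14895 genes with start peaks in both libraries, 9861 had promoters rich in CpG, and the 10 genes are not of that kind. The observed to expected CpG ratio over 500 bp to either side of the first start ran from 0.0653 to 0.282 over the 10 genes, with a median of 0.121, against 0.552 for all genes. Of the 7258 genes with a ratio below 0.3, 20.8% had a start peak in both libraries, so that the share of 1 in 10 here stands nearer to this background than to that of all genes. Where such low-CpG genes were open, their highest start peak had a median height of 69 in replicate 1 and 99 in replicate 2. The plot of CpG ratios shows all 10 genes left of the lower class limit.

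**Figure D1:**
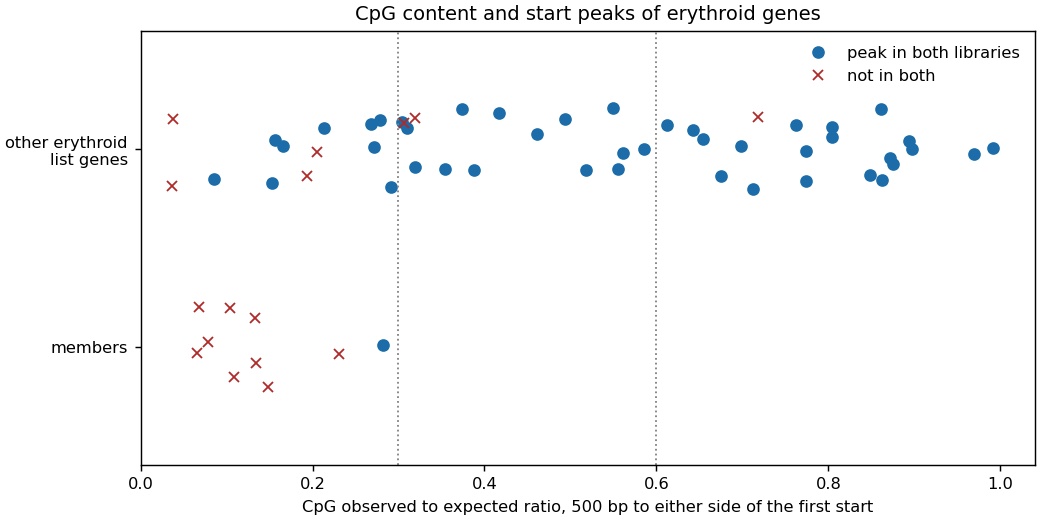
CpG observed to expected ratio (x axis, no unit) of the 10 globin and erythroid genes ("members", lower row) and of 50 other erythroid genes (upper row), spread vertically at random for visibility. Circles are genes with a peak within 1 kb of a start in both libraries and crosses the others; dotted lines mark the class limits 0.3 and 0.6. All 10 members lie below 0.3, and the only circle among them is Epor.

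The beta locus had no peak at its globin genes. Its 160.7 kb (chr7:103752524-103913216) held 4 peaks in each library, at the same 4 places, and none lay within 1 kb of a protein-coding start. All 5 Hbb protein-coding starts, the 4 above and Hbb-bh2, lay in 1 stretch of 53.85 kb (chr7:103807146-103860995) with no peak of either library. The distance from Hbb-y to its nearest peak was 7.80 kb in replicate 1 and 7.78 kb in replicate 2. For Hbb-bh1 it was 17.9 kb and 17.8 kb, and for Hbb-bs 20.6 kb in both. For Hbb-bt it was 6.85 kb and 6.87 kb. The embryonic and the adult genes were thus alike in having no start peak, and the nearest peaks were those at the flanks of the cluster.

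**Figure D2:**
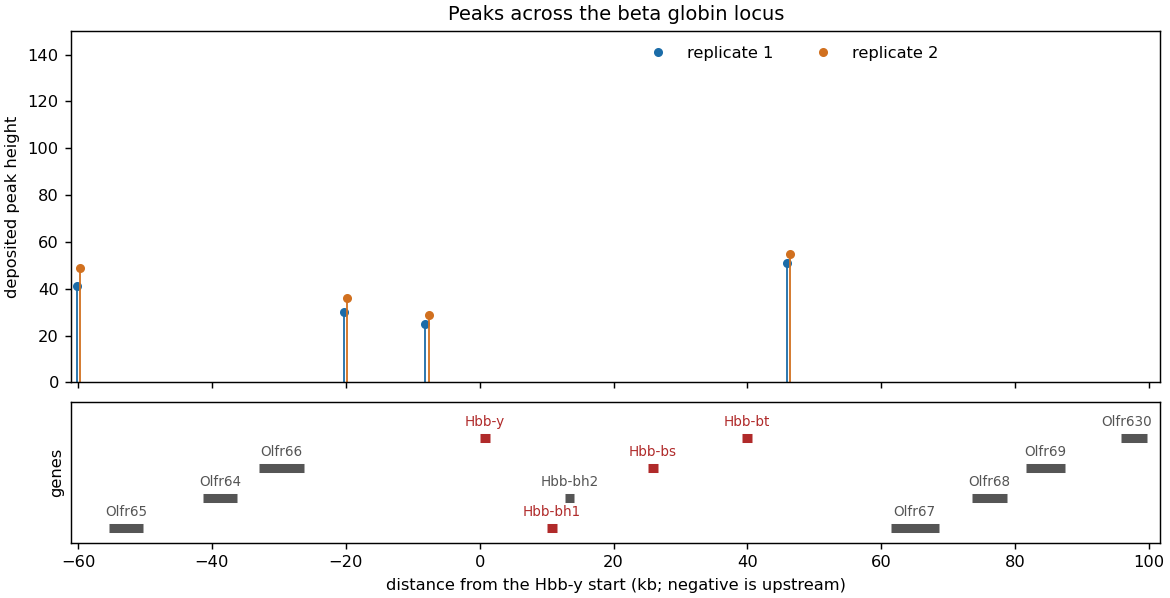
Deposited peak height (y axis, the authors' scale) of every peak of replicate 1 and replicate 2 against the distance from the Hbb-y start in kb (x axis; markers of the libraries are drawn 0.25 kb to either side of the true place). Gene bodies are below, the 4 globin members in red; the 4 peaks of each library stand outside the stretch from Hbb-y to Hbb-bt, and none passes 55.

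The 4 beta locus sites were intergenic and low. The site 46.2 kb downstream of the Hbb-y start, past Hbb-bt (chr7:103806976-103807145), had heights of 51 and 55, at percentiles 69.3 and 56.0. It was the only one of the 4 above the median height of both libraries. A CTCF site known as 3'HS1 lies on that side of the cluster, and the printed sequence holds 1 CTCF core (CC, 3 free bases, AG, 2 free bases, GGC, either strand) and 1 GATA match (AGATAA or TGATAA, either strand). The site 59.97 kb upstream of Hbb-y (chr7:103913116-103913265), at the border of the region examined, had heights of 41 and 49, at percentiles 58.4 and 48.7. It also held 1 GATA match.

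Upstream of Hbb-y, on the side of the locus control region, 2 sites were found. The site at 7.9 kb (chr7:103860996-103861165) had heights of 25 and 29, at percentiles 26.0 and 12.2, the lowest of the 4. Its hotspots carried deposited −log10 false discovery values of 3.71 and 2.13, against a top value of 100. So a weak site was called in each library at the place of the printed NF-E2 pair. The core TGACTCA or TGAGTCA occurred there at 2 places, and both carried the longer form, which 0.359% of all shared sites hold in their central 150 bp. The shorter core is held by 2.49% of shared sites. The site also held 2 E-boxes (CAGNTG), a form present in 37.9% of shared sites. The site at 20.1 kb (chr7:103873196-103873405) had heights of 30 and 36, at percentiles 39.0 and 26.4, and held none of the GATA, NF-E2, CACCC or CTCF matches.

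The beta sites rose less in height from replicate 1 to replicate 2 than the median shared site, and all 4 had a lower percentile in replicate 2. The ratio of replicate 2 to replicate 1 height was 1.08 to 1.20 at these sites, with a median of 1.18, while the median over all shared sites was 1.44. With 4 sites this is given as a description. Hotspots covered 0.465% of the locus in replicate 1 and 0.741% in replicate 2, against 1.64% and 2.71% of the genome. By the number of shared sites the locus was not unusual, since the median over 16539 windows of its length was 4 and 46.6% of the windows held more. The 7 olfactory receptor genes with starts in the region, Olfr65, Olfr64, Olfr66, Olfr67, Olfr68, Olfr69 and Olfr630, which encode odorant receptors of sensory neurons, had no start peak in either library, and neither had Hbb-bh2.

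The alpha globin genes also had no start peaks, but lay among open neighbours. Its 140.9 kb (chr11:32216400-32357298) held 30 peaks in replicate 1 and 38 in replicate 2, which formed 22 shared sites, 6 sites of replicate 1 alone and 12 of replicate 2 alone. Hba-x, the embryonic zeta gene, was 8.06 kb and 8.14 kb from its nearest peak, which lies within 1 kb of the Nprl3 start. Hba-a1 was 2.95 kb from its nearest peak in both libraries and Hba-a2 3.23 kb, and these peaks lie at the theta-like genes Hbq1b and Hbq1a. Hba-x and Hba-a1 shared a stretch of 18.41 kb (chr11:32268346-32286755) without a peak of either library, and Hba-a2 lay in a stretch of 12.25 kb (chr11:32287606-32299855).

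All 6 other protein-coding genes with a start in the alpha region, Rhbdf1, Mpg, Nprl3, Hbq1b, Hbq1a and Sh3pxd2b, had start peaks in both libraries. Of the 22 shared sites, 16 lay within 1 kb of a start and 6 were distal. The start of Nprl3, a subunit of the GATOR1 complex that restrains mTORC1, had the highest site of the locus (chr11:32267576-32267745), with heights of 118 and 142. Next by rank was the start of Mpg, a DNA repair glycosylase, at 98 and 130 (chr11:32226416-32226565). The site just before Sh3pxd2b, which encodes an adaptor of podosomes, reached 85 and 125 (chr11:32347596-32347805). At Rhbdf1, an inactive rhomboid protease, 4 shared sites within 1 kb of a start had heights of 22 to 81 in replicate 1 and 64 to 111 in replicate 2. These neighbours have CpG ratios of 0.615 (Mpg), 0.708 (Nprl3), 0.780 (Sh3pxd2b) and 0.850 (Rhbdf1), all in the class where 98% of genes had a start peak in both libraries.

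**Figure D3:**
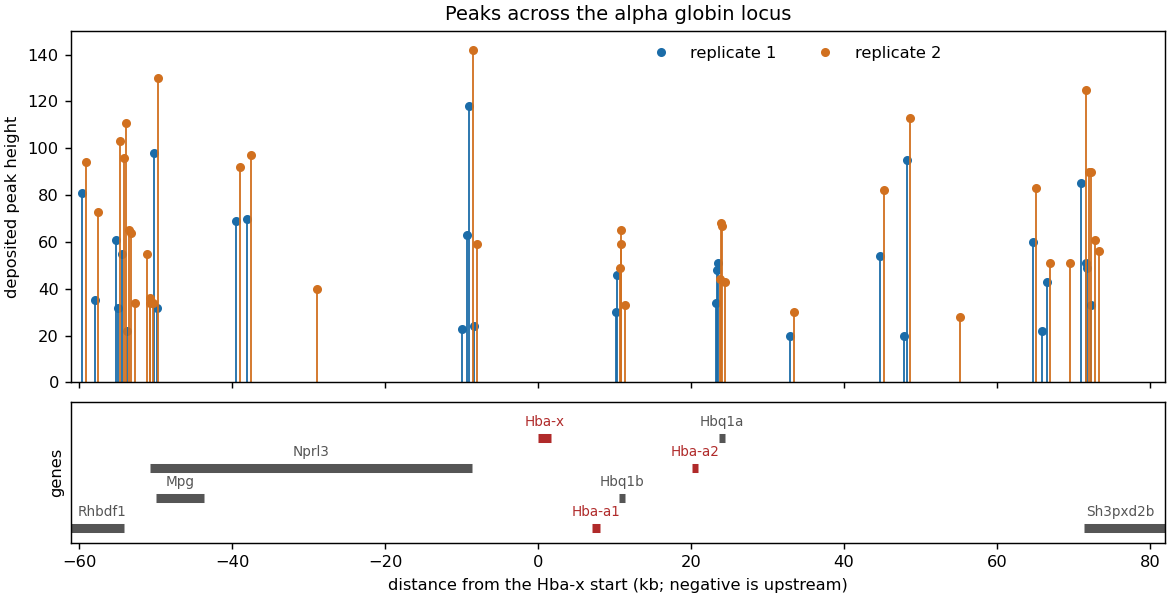
Deposited peak height (y axis, the authors' scale) of every peak of replicate 1 and replicate 2 against the distance from the Hba-x start in kb (x axis; markers of the libraries are drawn 0.25 kb to either side of the true place). Gene bodies are below, the 3 globin members in red; peaks stand at the starts of the neighbours, up to 118 and 142 at Nprl3, and none at Hba-x, Hba-a1 or Hba-a2.

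The body of Nprl3, where the erythroid enhancers of the alpha genes are known to lie, had few peaks away from its starts. Shared sites were called in an exon (chr11:32237136-32237305, heights 69 and 92) and an intron (chr11:32238576-32238725, heights 70 and 97), both within 1 kb of an annotated Nprl3 start. From there to the 5' end of the gene ran the longest stretch of the locus without a shared site, 28.85 kb (chr11:32238726-32267575). It held a peak of replicate 2 alone, 29.1 kb upstream of Hba-x in an intron (chr11:32247196-32247345, height 40, percentile 34.3, hotspot value 2.07), and 2 peaks of replicate 1 alone beside the Nprl3 start, at heights 23 and 63. Between the 5' end of Nprl3 and Hba-x, a shared intergenic site was called 8.2 kb upstream of Hba-x (chr11:32268116-32268345). Its heights were 24 and 59, its hotspot values 3.8 and 100, and it lay within 1 kb of the Nprl3 start. No GATA match was found in any of the 22 shared alpha sites, against 7.43% of all shared sites, and no longer NF-E2 form. The shorter NF-E2 core occurred in 1 of the 22, at a Rhbdf1 start.

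Between the adult alpha genes and Sh3pxd2b the shared distal sites were at 33.2 kb from the Hba-x start (heights 20 and 30), 45.0 kb (54 and 82), 48.4 kb (95 and 113), 64.9 kb (60 and 83) and 66.7 kb (43 and 51). The highest of them, at 48.4 kb (chr11:32324756-32324925), stood at percentiles 93.3 and 92.4. The printed sites at 45.0 kb and 64.9 kb hold 2 CTCF cores and 1. Over both loci 5 of the 26 shared sites held a CTCF core, 4 in the alpha and 1 in the beta locus, close to the 17.9% of all shared sites that do. The alpha region as a whole was rich in open chromatin: hotspots covered 6.45% and 8.98% of it, and 1.61% of 18863 windows of its length held more than 22 shared sites.

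The theta-like genes Hbq1b and Hbq1a, alpha-related genes of unclear function that follow Hba-a1 and Hba-a2, were the protein-coding globin genes of these loci that had start peaks. Hbq1b had heights of 46 and 65 at its shared site (chr11:32286756-32287125). Hbq1a had a shared site at 34 and 44 (chr11:32299856-32300005) and one at 51 and 68 (chr11:32300016-32300225). Their CpG ratios, 0.525 and 0.446, were above those of the 10 genes, in a class where 76.7% of genes had start peaks in both libraries. The Hbq1b site held 1 CTCF core in its central 150 bp, as 17.9% of all shared sites do. The 2 Hbq1a sites held none there but 1 each in the central 300 bp, in windows that overlap, against 20.99% of all shared sites.

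The alpha genes are near-identical copies, which limits what a read can show. Per the text beside the files, the authors' signal was made from uniquely mapping reads. Of the 31-base sequences within 1 kb of the first start, 25.01% at Hba-a1 and 19.0% at Hba-a2 occurred at 1 place in the genome, and in the 300 bp at each of these starts none did. Of the 31-base sequences of the Hba-a1 window, 74.5% recurred in the Hba-a2 window. Upstream of the RefSeq starts, the 2 promoters matched at 247 of 253 aligned positions, 97.6%. At these 2 genes, closed chromatin and reads that could not be placed cannot be told apart.

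For the other globin genes, sequence copies do not cover the promoter. The share of unique 31-base sequences within 1 kb of the first start was 100% at Hbb-y, 98.6% at Hbb-bh1, 96.3% at Hba-x, 63.7% at Hbb-bs and 56.4% at Hbb-bt. Of the Hbb-bs window, 35.8% recurred in that of Hbb-bt. In the 300 bp at the start the unique share was 97.04% at Hbb-bt and 100% at the other 4. At Klf1, Epor and Alas2 it was 98.9%, 98.7% and 98.9% within 1 kb. Sequences of this length could thus be placed at the starts of the embryonic genes and of both adult beta genes, where no peak was called. The bar plot of unique sequence shows the 2 alpha genes apart from the rest.

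**Figure D4:**
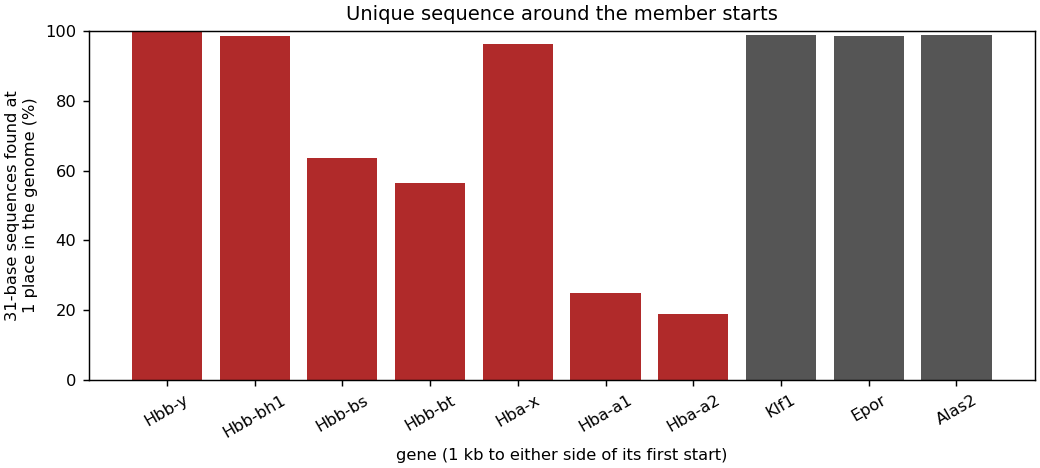
Percent of the 31-base sequences within 1 kb of the first start that occur at 1 place in the genome (y axis) for each gene (x axis; globin genes in red). Hba-a1 and Hba-a2 stand at 25.01% and 19.0%, Hbb-bs and Hbb-bt at 63.7% and 56.4%, and the other 6 genes at 96.3% or more.

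The theta-like genes are partial copies too. Hotspots at Hbq1b and at Hbq1a broke over a gap of 34 bp in both libraries, at chr11:32286895-32286928 and chr11:32300000-32300033. None of the 31-base sequences in either gap was unique, and 37.0% of those of the Hbq1b window recurred in the Hbq1a window. Heights at these 2 genes, and the number of sites into which they split, are uncertain for that reason.

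The promoters themselves hold erythroid motifs whether or not a peak was called. In the 250 bp upstream of the RefSeq start, 8 of the 9 genes with a RefSeq promoter had a GATA match, all but Hbb-bt, against 16.6% of 32851 promoters of the same length. A CCAAT box, present in 33.8% of promoters, occurred in 6 of the 9: Hbb-y, Hbb-bs, Hbb-bt, Hba-a1, Hba-a2 and Klf1. The CACCC form CCNCNCCC occurred in 5 of the 9 against 45.9%, and the stricter CCACACCC, a KLF1 type box, in Hbb-bs alone against 3.2%. An E-box and GATA composite (CTG, 8 or 9 free bases, GATA) occurred at Hbb-bs and Klf1, against 4.01%. A match is a description of letters and not of binding. These counts include Hba-a1 and Hba-a2 separately, although their promoters are near-identical and not independent.

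Epor, which encodes the erythropoietin receptor that keeps erythroid progenitors alive, was the 1 gene of the 10 with start peaks in both libraries. Its gene lies at chr9:21958897-21963506 on the − strand. The site just upstream of the first start (chr9:21963556-21963745) had heights of 48 and 56, at percentiles 66.4 and 57.1. The site at the start of a shorter transcript, 0.88 kb into the gene (chr9:21962536-21962725), had heights of 59 and 99, at percentiles 75.9 and 87.0. Both were below the median of the low-CpG genes that were open in replicate 1, and the inner one reached that median in replicate 2. The inner site held an E-box and GATA composite and 3 CACCC matches, and the upstream site 1 GATA match and 4 CACCC matches, of the form CCNCNCCC.

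Further Epor sites were a shared one in an exon 2.77 kb from the start (29 and 60) and peaks of replicate 2 alone at 0.20 kb (45) and 1.48 kb (70). The strongest sites near Epor belong to the next gene, Swsap1, a partner of a recombination protein, with heights of 121 and 130 at 7.80 kb and 117 and 130 at 7.45 kb. The Epor peaks thus stood well below those of its neighbour in both libraries.

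Klf1 (chr8:84901928-84905291, + strand) depended on the library and on the 1 kb limit. Replicate 1 had peaks at 0.60 kb (height 25) and 0.86 kb (height 35) from the start, and replicate 2 had none within 1 kb. Just outside, 1.27 kb into the gene, a shared exonic site with 72.7% GC (chr8:84903116-84903285) had heights of 93 and 121. The gap from the start to the nearest peak was 528 bp in replicate 1 and 1208 bp in replicate 2. A peak of replicate 1 alone followed at 1.58 kb (55). Hotspots within 1 kb of the start carried the top value 100 in both libraries. The neighbours were open at their starts, Gcdh, an enzyme of lysine breakdown, at 98 and 124, and Dnase2a, a lysosomal nuclease that clears the DNA of expelled erythroblast nuclei, at 115 and 127.

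Alas2 (chrX:150547375-150570638, + strand) had no site within 10 kb of a start. Its nearest peaks lay 21.7 kb and 21.1 kb from a start, at heights of 73 and 37, in different places in the 2 libraries. Alas1, the form of the same enzyme used in all tissues, had start peaks of 95 and 127. The erythroid isoenzyme gene thus had no start peak and the general one a high peak. Their CpG ratios differ, 0.149 at Alas2 and 0.354 at Alas1. In these classes 20.8% and 76.7% of all genes had a start peak in both libraries.

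Genes of the same pathways outside the globin loci were mostly open. In 5 lists of 50 genes in all, 43 (86%) had a start peak in both libraries, beside the 68% of all genes. The lists, too, were chosen with earlier results of these data known. By CpG ratio, 13 of the 50 were below 0.3, 16 from 0.3 to 0.6 and 21 at 0.6 and above. All 9 listed genes of haem synthesis were open, led by Urod at 121 and 136, Fech at 106 and 134 and Ppox at 111 and 123. Urod shares its peak with the start of Hectd3. All 8 genes of erythropoietin signalling were open, led by Bcl2l1, a survival factor, at 125 and 142, Epo at 117 and 132, and Socs3, a feedback inhibitor, at 110 and 137. The Epo peak also lies within 1 kb of a start of Gnb2, so it cannot be given to the hormone gene alone.

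Of the 12 erythroid transcription factors, 11 were open, and the exception was Gata1, the factor that defines the lineage. The highest were Zfpm1, the GATA1 cofactor, at 120 and 136, Ldb1, which bridges enhancers and promoters, at 113 and 143, and Klf3 at 111 and 135. Other factors of the list were open too, at lower heights: Tal1 at 51 and 108, Nfe2 at 55 and 91 and Gfi1b at 60 and 74, which were named after their values were seen. The red cell membrane list had 12 of 16, led by Epb41 at 115 and 137, Dmtn at 92 and 109 and Add2 at 86 and 119, which encode parts of the membrane skeleton. Kel, Rhag and Slc4a1, the blood group and anion exchange proteins of the red cell, had no start peak in either library, and the water channel gene Aqp1 had one of 40 in replicate 2 alone. Of iron and globin handling 3 of 5 were open, the transferrin receptor Tfrc at 116 and 137, the iron transporter Slc11a2 at 114 and 135, and Tfr2 at 60 and 93, while Hemgn and the mitochondrial iron importer Slc25a37 were not. The Slc11a2 peak also lies within 1 kb of a start of Gm5475.

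**Figure D5:**
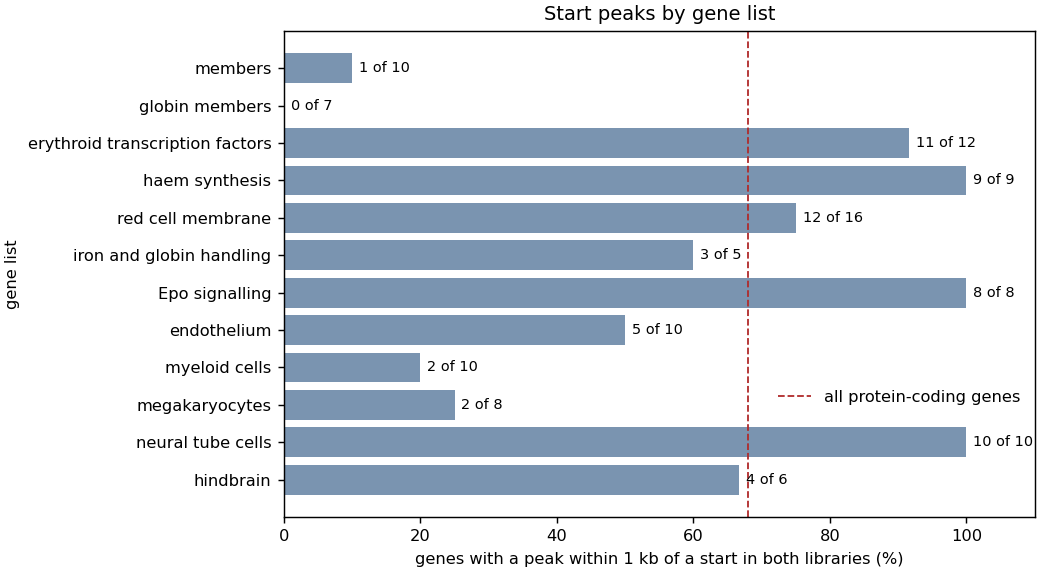
Percent of the genes of each list with a peak within 1 kb of a start in both libraries (x axis), with the number of genes; the dashed line is the share of all protein-coding genes, 68%. The 7 globin genes stand at 0 and the 10 members at 1 of 10, while haem synthesis, erythropoietin signalling and neural tube genes are all open.

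Low-CpG genes of these lists were compared with the 10 genes separately. Of the 13 listed erythroid genes with a ratio below 0.3, 9 (69.2%) were open, against 20.8% of all genes of that class and 1 of the 10. Among these 9 were Fech, whose ratio was 0.0860, Lmo2, a scaffold of the TAL1 complex, at 74 and 122, and Nfe2, a subunit of NF-E2, at 55 and 91. The membrane skeleton gene Epb42 at 25 and 44 and the blood group gene Ermap at 26 and 50 were also open, at heights below the low-CpG medians of 69 and 99. These genes were named after their values were seen. Most low-CpG genes of the erythroid lists thus had start peaks, while none of the 7 globin members did. Among the 7, Hba-a1 and Hba-a2 have no unique sequence at the start, so a missing peak there cannot be read either way. In the other classes the lists were nearer to the background, with 14 of 16 (87.5%) open at a ratio of 0.3 to 0.6 against 76.7% of all genes, and 20 of 21 (95.2%) at 0.6 and above against 98%.

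Markers of other cells that the dissected tissue could hold give the setting for these values. All 10 neural tube markers were open, beside 68% of all genes, among them Hes5 at 122 and 138, Sox2 at 115 and 135 and Tubb3 at 112 and 140. The CpG ratios of these 3 were 0.799, 0.959 and 0.601. Most neural tube markers were in that class, 0.6 and above, where 98% of all genes were open. Of the hindbrain markers 4 of 6 were open in both libraries and 6 in replicate 2, with Egr2 at 105 and 124 and Gbx2 at 100 and 128. Endothelial markers were open in 5 of 10 (50%), beside the 68% of all genes. The highest were Kdr at 79 and 122, Egfl7 at 76 and 116 and Erg at 59 and 108, while Cdh5 and Emcn had no peak. The CpG ratios of the 10 ran from 0.170 (Egfl7) to 0.811 (Flt1), over classes where 20.8%, 76.7% and 98% of all genes were open. A share matched to that mix was not computed, so the 50% cannot be read as a shortfall. The Egfl7 peak also lies within 1 kb of a start of Gm20532. Myeloid markers were open in 2 of 10, Cd68 at 37 and 60 and C1qa at 28 and 43. Megakaryocyte markers were open in 2 of 8, Itga2b at 97 and 130 and Gp1bb at 35 and 98. All 10 myeloid and 6 of the 8 megakaryocyte markers had a CpG ratio below 0.3, where 20.8% of all genes were open, so these counts were near that background. With hotspots in place of peaks, 4 of the 10 myeloid and 2 of the 8 megakaryocyte markers had one in both libraries. Of all genes 68.2% did, and the share among low-CpG genes was not computed for hotspots. How much of the erythroid and endothelial signal came from which cells was not tested.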

How the data were processed

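DNase-seq was analysed in 2 hindbrain libraries of 1 group. Per the labels, the build was mm10. Not given in the sources used here: aligner, peak caller, read depth and the scaling of heights. Both kinds of file were made by the authors for each library: deposited peaks with a height as signal, and deposited hotspots with a −log10 false discovery value whose top is 100. As depth is unknown, no counting interval is given. Repeated positions (32 and 60 peaks) and scaffolds were left out, overlaps of at least 1 bp merged peaks into sites, and starts came from all GENCODE M21 transcripts. No site passed a chromosome end of GRCm38.p6 on 21 chromosomes. Motifs were searched on both strands of the central 150 bp, with each place counted 1 time, and copies as 31-base sequences over the genome. Overlap, motif and copy counts were tested on simulated data. Of the 95 listed genes 1 was not analysed here.

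The members and lists were chosen with earlier results of these data known. Named were every member, genes of both loci, sites of the loci by rank and, per list, the 3 highest genes and the first 2 in alphabetical order without a peak; others are given as such, and some that the rule names are not reported here. Python 3.11.15 was used with pandas 2.3.3, numpy 2.4.6 and matplotlib 3.10.9.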

Additional observations from a re-analysis of the deposited data

How the results depend on the processing

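The count of genes with a start peak in both libraries, 1 of 10, became 2 with a window of 2500 bp, with hotspots in place of peaks and with hotspots at the value 100, Klf1 being the added gene each time. Leaving out a library gave 1 to 2. It stayed at 1 with 500 bp, with peaks above the median height and with starts of basic transcripts alone. The 7 globin genes had no start peak under any of these settings. For Hba-a1 and Hba-a2 the settings cannot decide, since no 31-base sequence in the 300 bp at their starts was unique. The 22 shared sites of the alpha locus became 8 with 30 kb on each side and 30 to 38 peaks in a library alone. The 4 shared sites of the beta locus became 1 with peaks above the median height, and each library alone gave 4. Sites with a CTCF core rose from 5 to 8 of 26 in the central 300 bp, where 20.99% of all shared sites hold one. The erythroid lists moved between 35 and 44 of 50. Of all genes, 68.2% had a hotspot in both libraries, 68.7% a start peak in replicate 1 and 71% in replicate 2. For the other settings the share of all genes is not given, so those changes in gene counts have no background. Uniqueness with 36 or 50 bases, chosen after seeing the data, moved no gene by over 1.5 times. No paired analysis was possible because the series has 1 group. Read depth is unknown, so a missing peak means that none was called, not that the chromatin was closed.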
